A study of Rattus norvegicus with 15 samples.

Results

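The AP-1 transcription factor family was examined in read counts from the cortex and hippocampus of rats whose vagus nerve had been stimulated. The family was taken as 7 genes, Fos, Fosb, Fosl2, Jun, Junb, Jund and Atf3, found by matching transcript records to rat symbols. These 7 of 16397 gene symbols had 9 of the 18278 transcript records counted. Rats of the VNS group received vagus nerve stimulation for 30 min on each of 4 days through an implanted device, and controls had a sham device implanted. There were 4 VNS and 3 control libraries of the hippocampus, whose rats were also given a novelty preference task of 10 min on days 2 to 4, and 4 VNS and 4 control libraries of the cortex. All rats were killed directly after the last stimulation. The labels name neither strain nor age.

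AP-1 is a family of paired DNA-binding proteins held together by a leucine zipper. Fos proteins bind DNA only as partners of Jun proteins, whereas Jun proteins can also pair with each other and with Atf3. In neurons, synaptic activity acts through calcium and MAP kinases on factors already bound at the Fos and Junb genes, so that these genes are transcribed within minutes. Jund is the member present at a steady level in many cells, and Fosb gives rise to a truncated, long-lived product that accumulates over repeated stimulation. The counts of Fosb do not separate its full-length and truncated forms.

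RefSeq's promoter table (build GRCr8) held 4 of the 7 genes and had no entry for Fos, Jun and Atf3. The sequences of Junb, Fosb, Fosl2 and Jund are shown for that reason alone and were not compared with the counts. Each is the 250 bases before the start given in that table, 5′ to 3′. Capitals mark matches, on either strand, to TGACGTCA, the full cAMP response element, or to its core TGACG. Junb lies on the plus strand at chr19:40080876-40081125, and the other genes on the minus strand, Fosb at chr1:88089185-88089434, Fosl2 at chr6:30039270-30039519 and Jund at chr16:18769772-18770021.
Junb: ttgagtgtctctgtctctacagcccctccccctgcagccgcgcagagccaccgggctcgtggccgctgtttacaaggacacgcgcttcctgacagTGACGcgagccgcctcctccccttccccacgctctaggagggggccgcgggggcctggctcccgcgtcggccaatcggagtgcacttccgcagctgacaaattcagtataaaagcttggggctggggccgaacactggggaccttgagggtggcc
Fosb: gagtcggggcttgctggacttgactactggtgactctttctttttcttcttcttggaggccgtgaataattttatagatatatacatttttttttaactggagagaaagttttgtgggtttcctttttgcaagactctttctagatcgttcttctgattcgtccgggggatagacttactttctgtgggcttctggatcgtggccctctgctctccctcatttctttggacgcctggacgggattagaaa
Fosl2: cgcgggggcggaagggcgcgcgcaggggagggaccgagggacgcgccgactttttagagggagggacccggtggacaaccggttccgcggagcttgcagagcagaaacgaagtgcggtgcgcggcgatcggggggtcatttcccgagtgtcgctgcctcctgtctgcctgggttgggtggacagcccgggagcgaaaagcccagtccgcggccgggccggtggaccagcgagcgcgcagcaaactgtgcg
Jund: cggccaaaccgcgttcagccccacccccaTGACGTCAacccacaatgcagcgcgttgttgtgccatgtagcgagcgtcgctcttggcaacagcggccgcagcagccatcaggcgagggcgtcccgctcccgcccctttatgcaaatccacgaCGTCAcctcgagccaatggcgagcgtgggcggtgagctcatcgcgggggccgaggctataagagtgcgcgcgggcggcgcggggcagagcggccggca
Junb held 1 match to TGACG, from base -155 to base -151 before the start. Jund held TGACGTCA from base -221 to base -214, which contains TGACG on both strands, and a separate TGACG on the minus strand from base -98 to base -94. Fosb and Fosl2 held neither. None of the 4 windows held TGACTCA, the AP-1 site itself, or a CArG box, the site of serum response factor. Over all 33469 windows of this length, 18.2% held TGACG, 1.59% TGACGTCA, 4.05% TGACTCA and 1.497% a CArG box.

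What could be counted differed between members. Fos (NM_022197, chromosome 6, 116249742 to 116252608 in rn5, 4 exons), Fosb (NM_001256509, chromosome 1, 81481174 to 81487900, 4 exons), Jun (NM_021835, chromosome 5, 117957730 to 117960823, 1 exon), Junb (NM_021836, chromosome 19, 37068595 to 37070379, 1 exon) and Atf3 (NM_012912, chromosome 13, 114411693 to 114443432, 4 exons) each had 1 record, and no exon of these 5 overlapped another record. Jund had 2 records over the same bases (chromosome 16, 20342096 to 20343775), and both were listed at 0 in all 15 libraries. The counting command in the file headers sets no option for reads that match several records, which the counter by default assigns to none, so the 0 is no measure of Jund. Fosl2 had 2 records (chromosome 6, 35422541 to 35440258), of which 1 was listed at 0 everywhere. The other, NM_012954, had 252 of its 671 bases to itself, so its counts come from part of the gene. Its CPM can be compared between libraries and not with the level of other genes.

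Hippocampal libraries held 16728486 to 51463555 counts and cortex libraries 329130 to 435296. The hippocampal libraries were not alike in region markers, the genes that distinguish brain regions. Summed over 9 genes of forebrain excitatory neurons, they held 3453 to 5413 CPM in the 4 VNS libraries, against 637.6, 223.9 and 4126 CPM in control libraries 1, 2 and 3. Over 9 genes of hippocampal pyramidal and granule cells the sums were 826 to 1306 CPM after VNS and 302.8, 286.3 and 937 CPM in the 3 controls. Over 8 genes of thalamic and brainstem neurons they were 24.7 to 134.8 CPM after VNS and 1302, 463.4 and 58.3 CPM in the 3 controls. Oligodendrocyte markers summed to 2079.95 to 4985 CPM after VNS and to 4379 to 7871 CPM in controls, and microglial markers to 149 to 189 and 152 to 194 CPM. Choroid plexus markers summed to 0.81 to 5.97 CPM after VNS and to 29.1, 29.8 and 1.72 CPM in the 3 controls. Ribosomal RNA records took 9.34% to 73.1% of counts in VNS libraries, the most in library 3, and 7.11% to 19.3% in controls. Control libraries 1 and 2 thus lacked most of the forebrain signal that their tissue label implies (Neurod6, a forebrain neuron factor, was at 0.65 and 1.05 CPM in them and at 81.4 CPM in control 3). The members' log2 fold changes and the list medians are given with and without these 2 libraries, and single genes of the lists with all libraries. In bulk tissue, fewer cells of a type and less RNA per cell cannot be told apart.

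The first comparison asked whether hippocampal levels of AP-1 genes differed after VNS. No member passed edgeR's quasi-likelihood test, among the 6 tested (0 of 12728 records passed in all, 0%; 12.1% had an unadjusted p under 0.05, but none of the 6 members did). Fos was the member whose VNS libraries all lay below all controls. Fosl2 had the highest log2 fold change, and Jun and Junb the ones closest to 0. The median log2 fold change of the 6 members was 0.14, against -0.01 over all records tested.

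**Figure D1:**
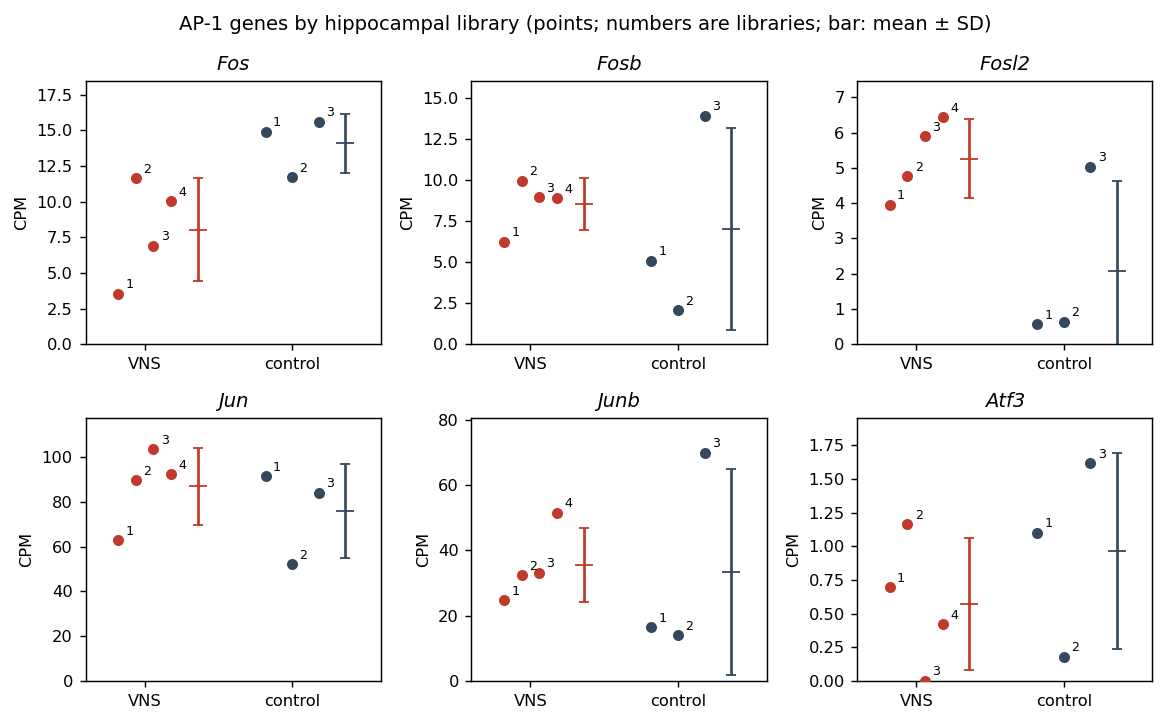
CPM of 6 AP-1 genes (y axis, one panel per gene) in the 4 VNS and 3 control libraries of the hippocampus; points are libraries with their numbers, and bars the mean ± SD, cut at 0 for Fosl2. The 4 VNS values of Fos lie below the 3 control values, the nearest being 11.65 and 11.72 CPM, and control libraries 1 and 2 are the lowest for Fosb, Fosl2 and Junb.

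Fos, the archetypal partner of Jun and the usual marker of recent neuronal activity, was at 3.54, 11.65, 6.91 and 10.03 CPM in the VNS libraries 1 to 4, against 14.9, 11.72 and 15.6 CPM in control libraries 1 to 3. CPM is a read count divided by the size of its library, here scaled by TMM, the normalization of edgeR. These values rest on 239, 240, 34 and 405 counts after VNS and on 732, 647 and 753 counts in controls. The groups did not overlap, although the highest VNS library and the lowest control lay within 0.59% of each other. Of all records tested, 4.61% had every VNS library below every control. The mean was 8.03 ± 3.58 CPM after VNS (SD, n = 4) and 14.1 ± 2.07 CPM in controls (SD, n = 3), and the groups differed by -0.81 on the log2 scale (SE 0.37). This did not pass (adjusted p = 0.40, edgeR quasi-likelihood test with Benjamini-Hochberg adjustment).

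The 3 controls had Fos within 1.33-fold of each other, while their forebrain marker sums differed by 18.4-fold. The log2 fold change of Fos was -0.73 without control 3 and -0.96 without controls 1 and 2, and it kept its sign in all 14 other settings run (-1.11 to -0.54, adjusted p from 0.31 to 0.99995). The size of the log2 fold change depended on the VNS libraries, at -0.54 without VNS library 1 and -1.06 without VNS library 2. With 4 other ways of scaling the libraries the highest VNS value stayed below the lowest control value, at 0.70 to 0.99 of it. VNS library 1 had the lowest Fos value and the lowest sum of thalamic and brainstem markers, and VNS library 2 the highest of both among the VNS libraries. In controls 1 to 3 that sum was 1302, 463.4 and 58.3 CPM. Control 3 had the highest Fos value of all hippocampal libraries, with a sum inside the VNS range. The part of tissue content in the Fos values was not tested.

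Fosb, a Fos relative with slower kinetics, was at 6.25, 9.95, 8.94 and 8.89 CPM in the VNS libraries 1 to 4, against 5.09, 2.08 and 13.9 CPM in control libraries 1 to 3. The VNS libraries lay between control 3 and the other controls, and the groups overlapped. Its log2 fold change was 0.27 (SE 0.55, adjusted p = 0.83). Without controls 1 and 2 it was -0.73, with control 3 as the only control and so no measure of spread among controls. Fosl2, also called Fra-2, was at 3.96, 4.76, 5.90 and 6.44 CPM after VNS, against 0.57, 0.63 and 5.03 CPM in controls. Controls 1 and 2 were the low libraries, with 28 and 35 counts, and control 3 lay inside the VNS range. The log2 fold change was 1.33 (SE 0.75, adjusted p = 0.43), and without controls 1 and 2 it was 0.04.

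Jun, the core DNA-binding partner of the family, was at 62.9, 89.5, 103.5 and 92.3 CPM in the VNS libraries 1 to 4, against 91.4, 52.0 and 84.0 CPM in control libraries 1 to 3. The groups overlapped throughout, with control 2 lowest and VNS library 3 highest. The log2 fold change of Jun was 0.20 (SE 0.24, adjusted p = 0.71), or 0.03 without controls 1 and 2. Junb, which pairs with Fos proteins and can restrain Jun, was at 24.7, 32.4, 33.1 and 51.5 CPM after VNS, against 16.4, 13.9 and 69.9 CPM in controls. Control 3 was above every VNS library and controls 1 and 2 were below every one. The log2 fold change of Junb was 0.09 (SE 0.56, adjusted p = 0.95) with all libraries. It was -0.99 without controls 1 and 2, a fit whose only control was control 3.

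Atf3, a stress-induced partner of Jun proteins known for its rise in injured neurons, was the member with the lowest counts. VNS libraries 1 to 4 held 47, 24, 0 and 17 counts and control libraries 1 to 3 held 54, 10 and 78. As CPM these were 0.70, 1.17, 0 and 0.42 after VNS, against 1.0997, 0.18 and 1.62 in controls. The groups overlapped. VNS library 3 was the shallowest after scaling, so its count of 0 allows up to 0.61 CPM (3 counts), which covers counting error only. The log2 fold change was -0.60 (SE 0.84, adjusted p = 0.75). It was -0.003 without control 3, -1.098 without control 2, -1.05 without VNS library 2, -0.37 without VNS library 3 and -1.34 without controls 1 and 2.

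The calls depended on control 3. Without it, Fosl2 rose (log2 fold change 3.11, SE 0.36, adjusted p = 0.0023) and Junb rose (1.23, SE 0.29, adjusted p = 0.033), while Fosb did not pass (1.24, SE 0.38, adjusted p = 0.079). In that fit 10.6% of 12931 records passed, and its controls were the 2 libraries with low forebrain markers. Against control 3 alone, all 4 VNS libraries were lower for Fos, Fosb, Junb and Atf3, which is 4 of the 6 members tested, against 13.3% of all records. That fit, of 4 VNS libraries against 1 control assumed to vary like them, called 0 of 13111 records (105 at an unadjusted p under 0.05).

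**Figure D2:**
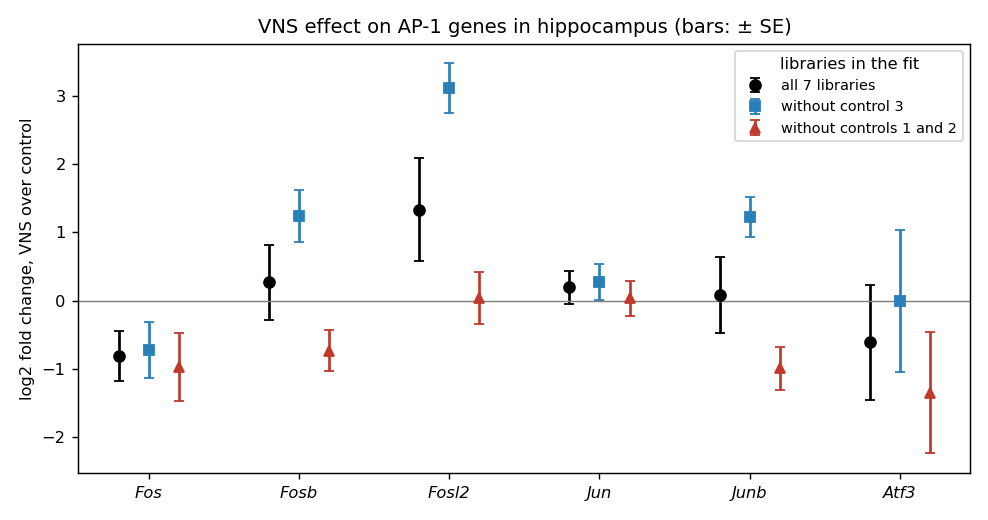
Log2 fold change of VNS over control in the hippocampus (y axis, ± SE) for 6 AP-1 genes, fitted with all 7 libraries, without control 3, and without controls 1 and 2. In the last fit control 3 was the only control, so its bars measure no spread among controls. The 3 fits share the VNS libraries and differ in the controls. The value for Fos stays between -0.96 and -0.73 in them. Those for Fosb, Fosl2 and Junb move with the controls used (Fosl2 from 0.04 without controls 1 and 2 to 3.11 without control 3).

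Members fell into different patterns across the hippocampal libraries. Controls 1 and 2 were both below the other 5 libraries for Fosb, Fosl2 and Junb, against 18.3% of all records. The order was not particular to AP-1 genes. It also held for 13 of 28 other immediate early genes, 9 of 21 records of AP-1 target genes and 9 of 9 forebrain excitatory markers. Fos, Jun and Atf3 did not show this order. For the 3 members that did, it follows that all 4 VNS libraries were above controls 1 and 2 (19.6% of all records). For Fos all 4 VNS libraries were below controls 1 and 2, against 18.7% of all records. On the log2 scale, each gene centred on its own mean, Fosb and Junb differed by 0.35 per library on average, the closest pair among the 15 pairs of members. Fos and Fosl2 differed by 1.51, and Fos and Junb by 0.87. The forebrain and hippocampal marker sums were low in the same 2 libraries as Fosb, Fosl2 and Junb, and their part in these values was not tested.

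**Figure D3:**
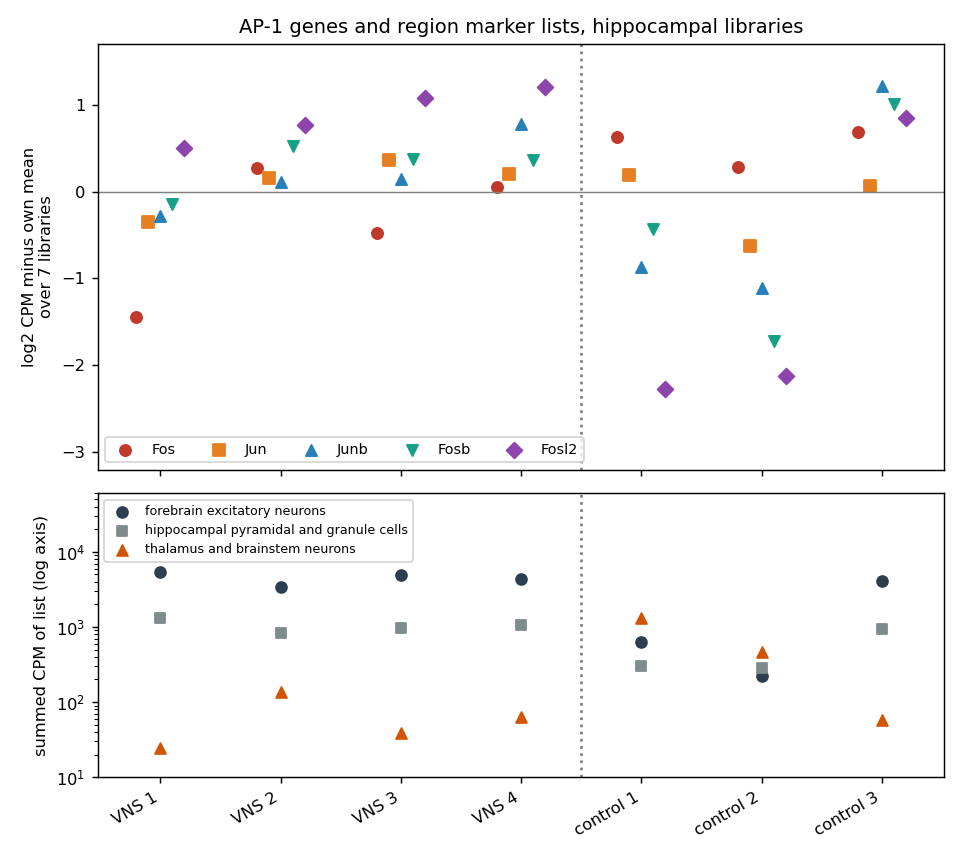
Upper panel, log2 CPM of 5 AP-1 genes minus each gene's own mean over 7 libraries (y axis), by hippocampal library. Lower panel, summed CPM of 3 region marker lists in the same libraries (log axis). In control 1, Fos stands at 0.63 and Fosl2 at -2.27, while the thalamic and brainstem sum exceeds the forebrain sum in controls 1 and 2.

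Levels were compared between genes as CPM per kb of record length, leaving out Fosl2 and Jund. After VNS, Jun was at 28.1 ± 5.56, Junb at 19.8 ± 6.38, Fos at 5.06 ± 2.26, Fosb at 2.62 ± 0.49 and Atf3 at 0.30 ± 0.26 CPM per kb (SD, n = 4). In controls the order was the same, with Jun at 24.5 ± 6.76, Junb at 18.7 ± 17.7, Fos at 8.86 ± 1.30, Fosb at 2.16 ± 1.89 and Atf3 at 0.51 ± 0.38 CPM per kb (SD, n = 3). Fos exceeded Fosb, and Fosb exceeded Atf3, in 7 of 7 libraries. Jun exceeded Junb in 6 of 7, since control 3 had a ratio of 0.69, so this pair was not separated beyond the spread. Junb exceeded Fos in 6 of 7 libraries, and in controls this pair too was not separated beyond the spread.

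Ratios of 2 members within a library do not depend on how libraries are scaled. Per kb, Junb was 6.20, 2.47, 4.27 and 4.57 times Fos in VNS libraries 1 to 4, against 0.98, 1.06 and 3.99 times in control libraries 1 to 3. Control 3 fell inside the VNS range. Jun was 9.12, 3.95, 7.69 and 4.73 times Fos after VNS, against 3.15, 2.28 and 2.77 times in controls, so these ratios did not overlap between groups. The ratio to Fos was higher in every VNS library than in every control for 36.9% of all records, and lower for 0.0864%.

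The records whose pattern over the 7 libraries was most like each member's, by the mean absolute difference in centred log2 CPM among 10756 others (10757 for Atf3) at a mean of 1 CPM or more, were named without regard to function. For Fos they were the cadherin Cdh20 (0.18), the ephrin Efna1 (0.21) and the contactin Cntn3 (0.21), where the median record differed by 0.59. For Fosb they were Lzts1 (0.12), the albumin gene Alb (0.16) and Tiam1 (0.18), and for Junb Cd34 (0.20), Tfcp2l1 (0.22) and Ephx4 (0.23). For Jun they were Sox5 (0.09), Pabpc6 (0.09) and Irak2 (0.09), and for Fosl2 the ghrelin receptor gene Ghsr (0.20), Mfap3l (0.23) and Smpd5 (0.23). For Atf3 the nearest, Wfikkn1 (0.65), Clic3 (0.68) and Il18bp (0.70), were farther away, as was the median record (1.74). Its centred value was -5.02 in VNS library 3, where it had 0 counts, against -1.04 to 2.04 in the other libraries. That low value is set by the small constant added to counts, so the neighbours of Atf3 lean on this library. No member of the family was among another member's nearest 3.

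Other genes of the AP-1 pathway were described by lists, and none of their 93 tested records passed in the hippocampus. Over all records tested, 49.2% had higher values after VNS (median log2 fold change -0.01, or 0.009 without controls 1 and 2). Of the proteins that act on the Fos gene, 8 of 11 tested had higher values after VNS (median log2 fold change 0.38). The activity-dependent factor gene Mef2d was at 77.6, 80.4, 102.5 and 76.6 CPM in the VNS libraries 1 to 4, against 47.4, 45.004 and 72.2 CPM in control libraries 1 to 3 (log2 fold change 0.62, SE 0.20, adjusted p = 0.40). Its groups did not overlap, as for 4.67% of all records in this direction. Crtc1, a coactivator of CREB, was at 72.5, 63.4, 113 and 89.4 CPM after VNS, against 27.7, 29.4 and 66.5 CPM in controls (1.03, SE 0.35, adjusted p = 0.40). For both genes control 3 was nearer the VNS libraries than controls 1 and 2 were. Without controls 1 and 2 the median of this list was 0.05.

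Among 17 tested MAP kinase genes, the enzymes that carry receptor signals to Fos and Jun, 7 had higher and 10 lower values (median -0.04, or -0.02 without controls 1 and 2). The ribosomal S6 kinase gene Rps6ka1 was at -0.78 on the log2 fold change scale (SE 0.31, adjusted p = 0.40), and its VNS and control libraries overlapped. Of 13 tested records of other leucine zipper partners, 10 had higher values (median 0.14, or 0.05 with 8 of 14 higher without controls 1 and 2), with Cebpd, a C/EBP factor, at 0.86 (SE 0.35, adjusted p = 0.40). Of 3 tested ubiquitin ligase genes that target Jun for degradation (median 0.09, or -0.03 without controls 1 and 2), Itch was at -0.29 (SE 0.14, adjusted p = 0.41) and Cop1 at 0.09 (SE 0.11, adjusted p = 0.73).

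Of 21 tested records of genes known as AP-1 targets in some tissues, 14 had higher values after VNS (median 0.60, or 0.21 without controls 1 and 2). The cell cycle gene Ccnd1 was at 30.1, 27.7, 23.6 and 34.4 CPM after VNS, against 44.4, 38.4 and 35.8 CPM in controls, with every VNS library below every control (log2 fold change -0.44, SE 0.16, adjusted p = 0.40). For the neurotrophin gene Bdnf, 1 of 3 tested records had VNS libraries above all controls (4.67% of all records) at 0.62 CPM on average after VNS and 0.19 CPM in controls (1.64, SE 0.71, adjusted p = 0.40), and its counts are uncertain because the records share bases. Of 28 other immediate early genes, which respond to activity as Fos does, 16 had higher and 12 lower values (median 0.11). Trib1, a pseudokinase gene, was at -0.72 (SE 0.29, adjusted p = 0.40) and Dusp1, a phosphatase of MAP kinases, at -0.95 (SE 0.51, adjusted p = 0.43), and none of the 28 had groups that did not overlap (4.67% of all records with VNS above and 4.61% with VNS below). Without controls 1 and 2, 21 of the 28 had lower values (median -0.34), as had 4 of the 6 AP-1 members (median -0.85). Over all records the median of that fit was 0.009. Its only control was control 3, which had the highest value of all hippocampal libraries for Fos, Fosb, Junb and Atf3.

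The second comparison asked the same of the cortex, where Jun and Junb were the members with 10 reads or more in any library. Cortex reads were counted with a strand option, described below, so the values of Jun and Junb may not give the levels of these genes. Neither passed (1 of 3884 records passed in all, 0.0257%), and neither had an unadjusted p under 0.05 (2.39% of records) or groups that did not overlap (1.26% with VNS above and 1.03% with VNS below). Jun was at 139.7, 151.7, 137.3 and 173.3 CPM in the VNS libraries 1 to 4, against 52.4, 205.5, 175.9 and 180.7 CPM in control libraries 1 to 4. Control 1, with 16 counts, was the low library, and the other controls lay above every VNS library. The log2 fold change of Jun was -0.04 (SE 0.32, adjusted p = 0.9998, edgeR quasi-likelihood test). Without control 1 it was -0.29, at an adjusted p within the range of 0.986 to 0.999996 over all 12 other settings. Junb was at 167.6, 214.1, 180.4 and 209.05 CPM after VNS, against 203.1, 137.02, 262.3 and 209.9 CPM in controls, so the VNS libraries lay inside the control range. Its log2 fold change was -0.07 (SE 0.25, adjusted p = 0.9998).

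**Figure D4:**
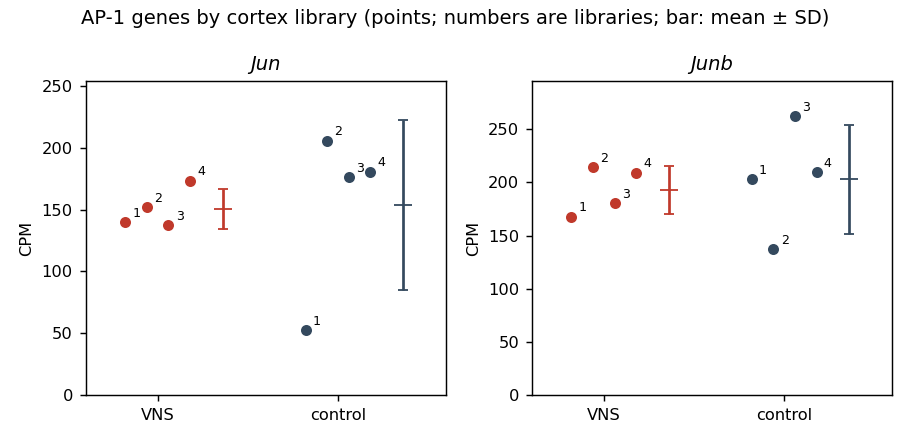
CPM of Jun and Junb (y axis, one panel per gene) in the 4 VNS and 4 control libraries of the cortex; points are libraries with their numbers, and bars the mean ± SD. The VNS libraries lie within the range of the controls for both genes, and Jun in control 1 is the lowest point at 52.4 CPM.

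The other members had few counts in the cortex. Fos had 1, 0, 0 and 5 counts in VNS libraries 1 to 4 and 2, 7, 2 and 1 counts in control libraries 1 to 4. Fosb had 4, 0, 8 and 8 counts after VNS and 8, 7, 9 and 0 in controls, Fosl2 had 2 counts after VNS and 4 in controls in all, and Atf3 had 0 throughout, which allows up to 7.09 to 9.83 CPM per library (3 counts). Fitted without a filter on low counts, 5 members could be tested in the cortex and none had an unadjusted p under 0.05. Cortex reads were counted with a strand option and hippocampal reads without one. Records with an overlapping neighbour on the opposite strand were 3.79% of all records. They took up 35.5% of the counts in the cortex, against 9.58% in the hippocampus, so a cortex count may not give the level of the gene it is named for.

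The difference in the VNS effect, hippocampus minus cortex, was tested for Jun (0.17, SE 0.45, adjusted p = 0.94) and Junb (0.10, SE 0.58, adjusted p = 0.97), and neither passed (0 of 7450 records passed, 0%, with 605 or 8.12% at an unadjusted p under 0.05, neither gene among them). A response of either gene was therefore not shown to differ between the tissues.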

How the data were processed

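Per the labels, the RNA was polyA-selected for the cortex and ribo-depleted for the hippocampus. The authors deposited raw counts per RefSeq transcript record (build rn5), and per the file headers used featureCounts 1.4.6-p2 with strand option 1 in the cortex and none in the hippocampus. Trimmomatic and Bowtie2 are named in the submitters' processing notes, without settings. Symbols came from a RefSeq table of GRCr8, which matched 17339 of 18278 records.

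Counts were fitted in R 4.3.3 with edgeR 4.0.16 over all records of a tissue that passed filterByExpr (minimum count 10, minimum total 15), with TMM scaling, glmQLFit and glmQLFTest, two-sided, Benjamini-Hochberg adjustment and calls at 0.05. The difference between tissues was a contrast over all 15 libraries. Nothing in the labels ties libraries to shared animals, so p-values measure the spread between these libraries. No libraries were duplicates (smallest chi-square per degree of freedom 24.2 in the hippocampus and 3.12 in the cortex). Alternatives were DESeq2 1.42.0, limma-voom (limma 3.58.1), DESeq2 size factors, no filter, sums per symbol, records without ribosomal and 7SL RNA, and leaving out libraries. Other scalings of the levels, and the lists without controls 1 and 2, were added after seeing the data. The fit was tested on simulated data.

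Members and lists were chosen with earlier results of these data known. All members were named, with the 2 genes of smallest p in each list (some are not reported here) and the 3 records most like each member. Mean levels were compared as CPM per kb.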

Additional observations from a re-analysis of the deposited data

How the results depend on the processing

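No AP-1 member passed in the hippocampus in 13 of 14 other settings, and 2 did without control library 3. DESeq2 called 17 hippocampal records (1906 at an unadjusted p under 0.05) and 14 for the difference between tissues, none of them an AP-1 member, and 5 cortex records passed without a filter on low counts. Without hippocampal control 3, 2 of 6 tested members and 24 of 94 tested list records passed there, against 10.6% of all records. Leaving out each library in turn gave 0 to 1377 called records in the hippocampus, 0 to 4 in the cortex and 0 to 244 for the difference. Called members in the hippocampus were 0 to 2 and called list records 0 to 24. Each maximum was without hippocampal control 3 except that of the cortex, which was without cortex control 1. The log2 fold changes then ranged from -0.17 to 1.24 for Fosb, from -0.014 to 0.35 for Jun and from -0.28 to 1.23 for Junb in the hippocampus, from 0.89 to 3.11 for Fosl2 and from -1.098 to -0.003 for Atf3 there, from -0.29 to 0.15 for Jun and from -0.22 to 0.10 for Junb in the cortex, and from -0.091 to 0.44 for Jun and from -0.28 to 1.14 for Junb for the difference. Signs turned without hippocampal controls 1 and 2 for Fosb (-0.73), Junb (-0.99) and the difference of Junb (-0.96). The cause was not tested. No paired analysis was possible because the labels give no replicate numbers. At cortex depth, 3 counts correspond to 7.09 CPM or more, which limits Fos, Fosb, Fosl2 and Atf3 there. Cortex reads were also counted with a strand option, so these counts may not give the levels of the genes.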

Other observations

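Fosl1, which encodes the Fos relative Fra-1 and is not among the 7 genes described, was at 642.3 to 817 CPM in the 4 VNS and 518.9 to 809 CPM in the 4 control libraries of the cortex. In the hippocampus it was at 3.25 to 5.44 CPM after VNS and at 2.91 to 4.39 CPM in controls. The cortex value was counted with the strand option and may not give the level of the gene. Its log2 fold change was 0.15 (SE 0.18, adjusted p = 0.9998, edgeR quasi-likelihood test) in the cortex and 0.40 (SE 0.26, adjusted p = 0.48) in the hippocampus. The gene was named after its values were seen, and a level was not compared between tissues because the libraries were made and counted differently.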
